A study of Homo sapiens with 6 samples.

Results

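The 10 genes described here encode amino acid transporters of the plasma membrane, namely *SLC7A5*, *SLC3A2*, *SLC7A11*, *SLC1A5*, *SLC1A4*, *SLC38A1*, *SLC38A2*, *SLC7A1*, *SLC6A9* and *SLC43A1*. They were taken by symbol from a table of 58735 genes, and each symbol matched 1 Ensembl identifier. HGC27 is a cell line from a human gastric cancer. Its RNA was sequenced after 48 h with ARV-825 (n = 3, titled ARV125nM for the dose) and in control cells of the same line (n = 3, titled 0nM). ARV-825 couples the BET protein ligand OTX015 to a ligand of cereblon, a subunit that gives a ubiquitin ligase its substrates. The labels call the control cells untreated, whereas the Methods name DMSO. Both groups were grown in DMEM with serum, and only 1 cell line and 1 dose were compared. Whether the 3 samples in each group were separate cultures is stated neither in the labels nor in the Methods, so the p-values cover the spread among libraries alone, and this may be technical.

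The values are FPKM, fragments per kilobase of exon relative to a scale set for each library. Multiplying them by exon length gave back whole fragments, of which 14821971 to 15201942 lay in genes in the ARV-825 libraries and 16626609 to 19145661 in the control libraries. Mitochondrial genes took 9.84% to 12.0% of these fragments in ARV-825 and 5.62% to 6.24% in control. By the chi-square of their fragments over its degrees of freedom, ARV-825 replicate 1 differed more from replicates 2 and 3 (6.68 and 6.02) than these did from each other (1.62). The epithelial markers *KRT8*, *KRT18*, *KRT19* and *CDH1* lay between 0 and 0.0401 FPKM in every library, so they did not mark these cells as epithelial. *EPCAM*, also epithelial, was at 0.599, 0.528 and 0.678 FPKM in ARV-825, against 0, 0.0231 and 0.0590 FPKM in control, below the filter but with no overlap between the groups. Its part in the results was not tested. The mesenchymal filament gene *VIM* averaged 247 FPKM in ARV-825 and 269 FPKM in control. Of 8 markers of other cells, 7 stayed at or below 0.221 FPKM in every library. The other was the collagen gene *COL1A1*, at 27.2 FPKM in ARV-825 and 141 FPKM in control, and its source was not tested. In bulk RNA, fewer cells that express a gene and less of its RNA per cell cannot be told apart.

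Amino acids cross the plasma membrane through carriers of several solute carrier (SLC) families. SLC7 light chains such as SLC7A5 (LAT1) and SLC7A11 (xCT) are exchangers that reach the membrane bound to the heavy chain SLC3A2 (CD98). The sodium-coupled carriers of the SLC1, SLC6 and SLC38 families build up small neutral amino acids inside the cell, and LAT1 can exchange these for leucine and other large neutral ones. Many tumours have high levels of LAT1, xCT and the glutamine carrier SLC1A5 (ASCT2), and transcription of several of these genes is known to be driven by ATF4 when amino acids are scarce.

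After ARV-825 treatment, 9 of the 10 transporter transcripts fell, and 1, *SLC38A2*, rose slightly with FPKM as deposited but not after rescaling to TPM, where each library is scaled to the same sum. Their levels in ARV-825 were 0.0630 to 0.425 times those in control for the 9 that fell, and 1.21 times for *SLC38A2*. All 10 passed the filter of a mean of at least 1 FPKM, and in the test with limma on log2(FPKM + 1) over 13442 genes, 9 were lower at an adjusted p under 0.05, against 40.2% of all genes tested. The same 9 also passed an absolute log2 fold change above 1, against 12.1% of all genes tested. *SLC38A2* was higher (except after rescaling to TPM), as were 37.0% of all genes tested, but did not pass the fold threshold in the upward direction, which 8.81% of genes did. In the 9 genes every ARV-825 library lay below every control library, as was the case for 41.6% of all genes tested, and in *SLC38A2* every ARV-825 library lay above, as in 38.5% of genes. Over the 10 transporters the log2 fold changes had a median of −2.05, and over all genes tested one of −0.02. Without ARV-825 replicate 1, which stood apart, 9 transporters were lower and 1 higher, and with mitochondrial genes left out of the scale *SLC38A2* was at 0.26 and the other 9 were still lower. An exact two-sided permutation test of each gene alone gave p = 0.1, the smallest value that 3 against 3 libraries allow.

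**Figure D1:**
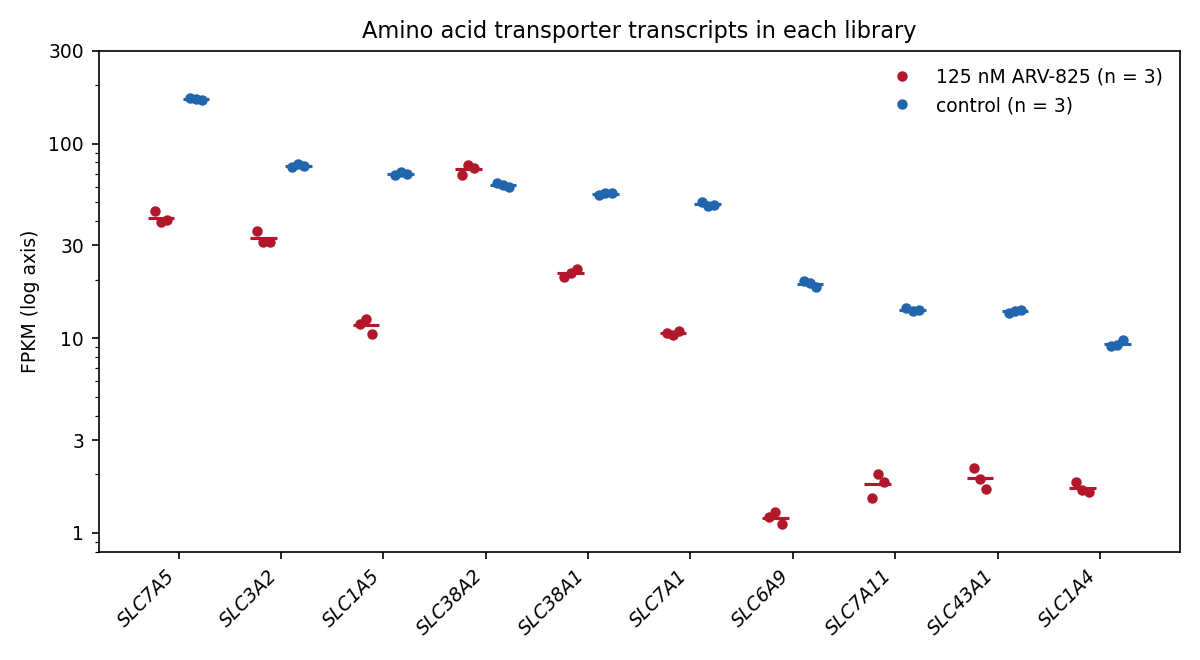
FPKM on a log axis of the 10 amino acid transporter transcripts in each library (points) with the group mean (line), ARV-825 in red and control in blue, ordered by the level in control. The points of *SLC38A2* sit higher in ARV-825 (69.2 to 77.8 FPKM) than in control (59.7 to 62.5 FPKM), which did not hold after rescaling to TPM, and the points of the other 9 genes sit lower in ARV-825.

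Promoter sequences are shown because ATF4 acts through a known element, and the members differ in whether its letters occur near their start. Sequences were taken from RefSeq (GRCh38.p14), 250 bases before to 50 bases after each annotated start. Of the 10 genes, 9 were found there, with 16 windows among them. *SLC7A11* had no window, so it was not searched for any motif. The composite element of C/EBP and ATF factors was searched on both strands as TGATGNAA. It occurred in 5 of the 16 windows (31.2%), 1 each of *SLC1A4*, *SLC1A5*, *SLC38A1*, *SLC3A2* and *SLC7A1*, against 3.62% of 35116 windows of all genes. Several members are known to be driven by ATF4, and the members were chosen with earlier results known. The share is therefore a description alone. In the 30 bases around each match, read 5′ to 3′ on the strand of the gene, capitals mark the element.
SLC1A4, chr2:64989381-64989410, plus strand: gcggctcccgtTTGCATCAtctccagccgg
SLC1A5, chr19:46784893-46784922, minus strand: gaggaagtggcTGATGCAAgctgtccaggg
SLC38A1, chr12:46266502-46266531, minus strand: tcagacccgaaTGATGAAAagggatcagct
SLC3A2, chr11:62881719-62881748, plus strand: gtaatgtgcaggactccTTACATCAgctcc
SLC7A1, chr13:29595663-29595692, minus strand: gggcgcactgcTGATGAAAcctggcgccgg

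The E-box CACGTG, which MYC and MAX can bind, occurred in 3 of the 16 windows (18.8%), 1 each of *SLC1A5*, *SLC43A1* and *SLC7A5*, against 7.26% of all windows. The antioxidant response element of NFE2L2, searched as TGACNNNGC, occurred in 4 of the 16 windows (25%), 1 each of *SLC1A5*, *SLC3A2*, *SLC7A1* and *SLC7A5*, against 13.3% of all windows. Each motif was counted on both strands and separately from the others. The windows of *SLC38A2* and *SLC6A9*, 1 each, held none of the 3 motifs. Of these genes, *SLC38A2* did not fall and *SLC6A9* fell the most of all members. Any link between the motifs and the changes was not tested. The lines that follow give the 250 bases before the start of *SLC7A5*, which had the highest level in control, and of *SLC43A1*. In both, capitals mark the E-box. The same stretch of *SLC38A2*, with no match in its window, comes last.
SLC7A5, chr16:87869508-87869757, minus strand: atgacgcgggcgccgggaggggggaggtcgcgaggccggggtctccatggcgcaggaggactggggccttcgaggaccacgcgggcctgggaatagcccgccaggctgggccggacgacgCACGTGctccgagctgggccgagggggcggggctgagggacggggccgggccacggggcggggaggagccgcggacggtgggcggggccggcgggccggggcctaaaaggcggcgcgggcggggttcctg
SLC43A1, chr11:57515703-57515952, minus strand: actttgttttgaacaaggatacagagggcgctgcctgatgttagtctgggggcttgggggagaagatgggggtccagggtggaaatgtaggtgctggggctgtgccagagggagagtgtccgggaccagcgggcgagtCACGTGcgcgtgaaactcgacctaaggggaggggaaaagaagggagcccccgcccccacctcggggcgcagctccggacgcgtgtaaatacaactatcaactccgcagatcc
SLC38A2, chr12:46372774-46373023, minus strand: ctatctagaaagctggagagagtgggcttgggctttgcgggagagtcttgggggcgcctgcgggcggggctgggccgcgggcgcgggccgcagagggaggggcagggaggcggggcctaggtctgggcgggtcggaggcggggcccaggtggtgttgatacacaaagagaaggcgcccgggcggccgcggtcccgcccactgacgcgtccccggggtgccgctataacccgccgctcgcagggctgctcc
Several of these genes have more than 1 start, and FPKM per gene does not tell which one was used. A match is a string of letters, and binding was not measured here. Bases outside the windows were not searched, so a gene without a match may hold the letters elsewhere.

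*SLC7A5* (ENSG00000103257, chr16:87830023-87869488, minus strand, GRCh38) encodes LAT1, the exchanger that brings in leucine and other large neutral amino acids. It had 45.3, 39.5 and 40.3 FPKM in the ARV-825 libraries, against 171, 169 and 168 FPKM in the control libraries. The ARV-825 libraries lay far below the control libraries, whose 3 values were almost the same. The means were 41.7 ± 3.14 FPKM in ARV-825 and 169 ± 1.77 FPKM in control (SD, n = 3 in each group), and the log2 fold change was −2.00 (adjusted p = 3.37e-07 from limma, SE 0.0544). These levels rested on 2800 to 3132 fragments per ARV-825 library and 13809 to 16061 per control library. The pseudogene copy *SLC7A5P1*, also on chromosome 16, stood at 1.89 ± 0.331 FPKM in ARV-825 and 7.34 ± 0.863 FPKM in control (log2 fold change −1.53). Fragments of *SLC7A5* that match it may have been counted to either gene.

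*SLC3A2* (ENSG00000168003, chr11:62856102-62888875, plus strand) encodes the heavy chain CD98, which carries no amino acids itself but takes LAT1, xCT and other light chains to the membrane. Its transcript stood at 35.6, 31.4 and 31.3 FPKM in ARV-825, against 75.5, 78.7 and 77.2 FPKM in control. ARV-825 replicate 1 was the highest of its group for both the heavy chain and *SLC7A5*. The means were 32.8 ± 2.47 FPKM in ARV-825 and 77.1 ± 1.60 FPKM in control, and the log2 fold change of −1.21 (adjusted p = 2.03e-06 from limma, SE 0.0556) was the smallest decrease of the 9. Within each library, *SLC7A5* was 1.27, 1.26 and 1.29 times as high as *SLC3A2* in ARV-825, against 2.27, 2.15 and 2.17 times in control. This ratio does not depend on how the libraries are scaled, and its groups did not overlap.

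*SLC7A11* (ENSG00000151012, chr4:138164097-138242349, minus strand) encodes xCT, which exports glutamate for cystine, the source of cysteine for glutathione. Its values were 1.51, 2.01 and 1.82 FPKM in ARV-825, against 14.3, 13.8 and 13.9 FPKM in control. All ARV-825 libraries were thus near the filter of 1 FPKM, with 212 to 292 fragments each, where the control libraries held 2295 to 2712. The means of 1.78 ± 0.256 FPKM in ARV-825 and 14.0 ± 0.243 FPKM in control gave a log2 fold change of −2.44 (adjusted p = 3.88e-07 from limma, SE 0.0716). Relative to the heavy chain, *SLC7A11* stood at 0.0549 ± 0.0113 times the *SLC3A2* level in ARV-825 and 0.182 ± 0.00686 times in control. The antisense gene *SLC7A11-AS1* shares 8.97% of the exon bases of *SLC7A11*, and the kit did not mark strand. It had 0.205 ± 0.0457 FPKM in ARV-825 and 1.15 ± 0.0877 FPKM in control.

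Other light chains of CD98 varied. *SLC7A8* (LAT2), a large neutral exchanger like LAT1, was at 27.3 ± 1.27 FPKM in ARV-825 and 28.1 ± 0.642 FPKM in control and did not pass the test (log2 fold change −0.04, adjusted p = 0.442 from limma). It therefore stood at 0.656 ± 0.0225 times the *SLC7A5* level in ARV-825 and 0.166 ± 0.00551 times in control. *SLC7A6*, which exchanges cationic for neutral amino acids, fell to 2.98 ± 0.0274 FPKM in ARV-825, against 6.50 ± 0.0896 FPKM in control (log2 fold change −0.91, adjusted p = 1.82e-06). The 6 light chains together, *SLC7A7* and *SLC7A10* included, summed to 74.3 ± 4.04 FPKM in ARV-825 and 218 ± 1.25 FPKM in control. Per unit of *SLC3A2* they came to 2.27 ± 0.0472 in ARV-825 and 2.83 ± 0.0719 in control.

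*SLC43A1* (ENSG00000149150, chr11:57484534-57515786, minus strand) encodes LAT3, a carrier of large neutral amino acids that needs neither sodium nor a heavy chain. It had 2.16, 1.88 and 1.68 FPKM in ARV-825, against 13.5, 13.8 and 14.0 FPKM in control. Each ARV-825 library held 87 to 111 fragments of it and each control library 840 to 996. With means of 1.91 ± 0.237 FPKM in ARV-825 and 13.8 ± 0.221 FPKM in control, the log2 fold change was −2.35 (SE 0.0651, adjusted p = 3.41e-07 from limma). Its relative *SLC43A2* (LAT4), a carrier of the same kind, moved the other way, with 6.10, 5.57 and 6.02 FPKM in ARV-825, against 1.43, 1.26 and 1.39 FPKM in control. Its log2 fold change of 1.55 (adjusted p = 9.18e-07 from limma, SE 0.0579) was an increase, which it kept when the libraries were rescaled to TPM. *SLC43A2* was 2.83, 2.96 and 3.58 times as high as *SLC43A1* in ARV-825 and 0.105, 0.0912 and 0.0993 times as high in control, so the order of the pair differed between the groups. The 4 large neutral carriers *SLC7A5*, *SLC7A8*, *SLC43A1* and *SLC43A2* summed to 76.8 ± 4.76 FPKM in ARV-825 and 213 ± 0.942 FPKM in control, a ratio of 0.361.

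**Figure D2:**
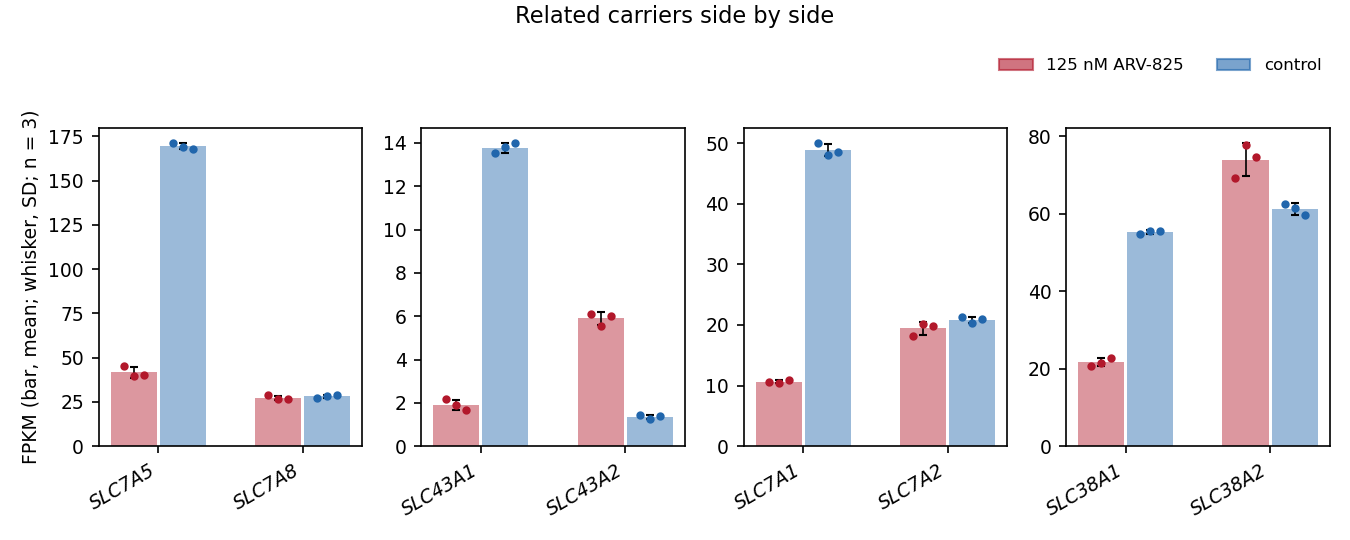
FPKM of 4 pairs of related carriers in ARV-825 (red, left) and control (blue, right), with bars for the mean, whiskers for the SD and points for the 3 libraries of each group, on a linear axis from 0 in each panel. *SLC7A8* and *SLC7A2* lie at similar heights in both groups (27.3 and 28.1 FPKM, and 19.4 and 20.8 FPKM) beside the decreases of *SLC7A5* and *SLC7A1*, while *SLC43A2* is above *SLC43A1* in ARV-825 and below it in control. The small increase of *SLC38A2* did not hold after rescaling to TPM.

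*SLC1A5* (ENSG00000105281, chr19:46774883-46788594, minus strand) encodes ASCT2, a sodium-dependent exchanger of glutamine and other neutral amino acids. Its level was 11.9, 12.5 and 10.6 FPKM in ARV-825, against 69.3, 71.3 and 70.1 FPKM in control. The 3 control libraries lay within a few FPKM of each other and far above ARV-825. It averaged 11.7 ± 0.993 FPKM in ARV-825 and 70.2 ± 1.02 FPKM in control, a log2 fold change of −2.50 (adjusted p = 2.30e-07 from limma, SE 0.0595). The antisense gene ENSG00000275719 shares 23.4% of its exon bases but reached at most 0.189 FPKM in any library.

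*SLC1A4* (ENSG00000115902, chr2:64988477-65023865, plus strand) encodes ASCT1, which exchanges alanine, serine, cysteine and threonine. It stood at 1.84, 1.66 and 1.62 FPKM in ARV-825, against 9.16, 9.19 and 9.85 FPKM in control, and was the lowest of the 10 in control. The means were 1.71 ± 0.115 FPKM in ARV-825 and 9.40 ± 0.390 FPKM in control (log2 fold change −1.94, SE 0.0540, adjusted p = 3.41e-07 from limma). Both ASCT carriers fell by similar ratios. *SLC1A5* was 6.84 ± 0.624 times as high as *SLC1A4* in ARV-825 and 7.48 ± 0.332 times in control, with values that overlapped between the groups. Among the glutamate carriers of the same family, *SLC1A3* fell to 2.90 ± 0.0831 FPKM in ARV-825, against 9.03 ± 0.247 FPKM in control (log2 fold change −1.36, adjusted p = 5.02e-07 from limma). *SLC1A1* was below the filter, at 0.0844 ± 0.0440 FPKM in ARV-825 and 1.15 ± 0.206 FPKM in control.

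*SLC38A1* (ENSG00000111371, chr12:46183063-46270017, minus strand) encodes SNAT1, a sodium-coupled importer of glutamine and other small neutral amino acids. It had 20.7, 21.6 and 22.7 FPKM in ARV-825, against 54.7, 55.5 and 55.6 FPKM in control. All 3 ARV-825 values were below all control values, and the log2 fold change was −1.31 (SE 0.0404, adjusted p = 4.64e-07 from limma). *SLC38A3*, a glutamine carrier of the same family, stood at 0.381 ± 0.120 FPKM in ARV-825 and 2.08 ± 0.144 FPKM in control and was also lower (log2 fold change −1.16, adjusted p = 3.20e-05).

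*SLC38A2* (ENSG00000134294, chr12:46358189-46372867, minus strand) encodes SNAT2, the related importer known to be induced in cells short of amino acids, and lies beside *SLC38A1* on chromosome 12. It was measured at 69.2, 77.8 and 74.7 FPKM in ARV-825, against 62.5, 61.4 and 59.7 FPKM in control. ARV-825 replicate 1 was the lowest of its group and nearest to control. The means were 73.9 ± 4.32 FPKM in ARV-825 and 61.2 ± 1.44 FPKM in control, a log2 fold change of 0.27 (SE 0.0488, 95% confidence interval 0.15 to 0.38, adjusted p = 0.00194 from limma). Without ARV-825 replicate 1 it was 0.31. The direction depended on the scaling: after rescaling to TPM the log2 fold change of *SLC38A2* was −0.04 (adjusted p = 0.444), while the median of all genes was −0.31. In recovered fragments *SLC38A2* had 6666 to 7720 in the ARV-825 libraries and 6979 to 7950 in the control libraries. These overlap before any scaling, but the ARV-825 libraries held fewer fragments in genes. Scaled to fragments in genes, the log2 fold change of *SLC38A2* was 0.18 (adjusted p = 0.0133 from limma). With limma-voom on the recovered fragments it was also 0.18 (adjusted p = 0.00134). Its difference from *SLC38A1* does not depend on scaling. *SLC38A2* was 3.34, 3.61 and 3.29 times as high as *SLC38A1* in ARV-825, against 1.14, 1.11 and 1.07 times in control. Its antisense gene *SLC38A2-AS1*, with no shared exon bases, was below the filter at 1.012 ± 0.240 FPKM in ARV-825 and 0.263 ± 0.188 FPKM in control.

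*SLC7A1* (ENSG00000139514, chr13:29509410-29595688, minus strand) encodes CAT-1, the uniporter of arginine and lysine. It stood at 10.6, 10.4 and 10.9 FPKM in ARV-825, against 50.03, 48.1 and 48.5 FPKM in control. Replicates were close in both groups, and the log2 fold change of −2.10 had the smallest error of the 10 (SE 0.0347, adjusted p = 9.51e-08 from limma). *SLC7A2* (CAT-2), which carries the same amino acids, was at 19.4 ± 1.05 FPKM in ARV-825 and 20.8 ± 0.515 FPKM in control and did not pass the test (log2 fold change −0.09, adjusted p = 0.108). It was therefore 1.83 ± 0.111 times as high as *SLC7A1* in ARV-825 and 0.426 ± 0.00565 times in control. Both *SLC7A2* and *SLC7A8* passed as lower in 3 of 6 scaling alternatives, namely after rescaling to TPM (log2 fold changes −0.40 and −0.35), scaled to fragments in genes and with limma-voom. Summed with *SLC7A3*, the cationic carriers came to 30.1 ± 1.02 FPKM in ARV-825 and 69.7 ± 1.47 FPKM in control.

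*SLC6A9* (ENSG00000196517, chr1:43991500-44031467, minus strand) encodes GlyT1, the glycine carrier driven by sodium and chloride. It had 1.21, 1.28 and 1.11 FPKM in ARV-825, against 19.6, 19.2 and 18.4 FPKM in control. Only 84 to 99 fragments per library were left in ARV-825, where the control libraries held 1701 to 1914. The means of 1.20 ± 0.0824 FPKM in ARV-825 and 19.0 ± 0.613 FPKM in control differed by a log2 fold change of −3.19 (adjusted p = 7.07e-08 from limma, SE 0.0487), the tenth lowest of all 13442 genes tested. On this scale the pseudocount of 1 shrinks the change of low genes, and with a pseudocount of 0.01 it was −3.98. *CCDC24*, on the opposite strand, shares 7.83% of its exon bases and stood at 0.404 to 0.675 FPKM in ARV-825 and 1.29 to 1.51 FPKM in control. The neutral carrier *SLC6A15* of the same family fell to 2.40 ± 0.149 FPKM in ARV-825, against 6.25 ± 0.398 FPKM in control (log2 fold change −1.09, adjusted p = 4.85e-06). The taurine carrier *SLC6A6* changed less, with 8.68 ± 0.227 FPKM in ARV-825 and 11.1 ± 0.260 FPKM in control (log2 fold change −0.33, adjusted p = 0.000215).

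**Figure D3:**
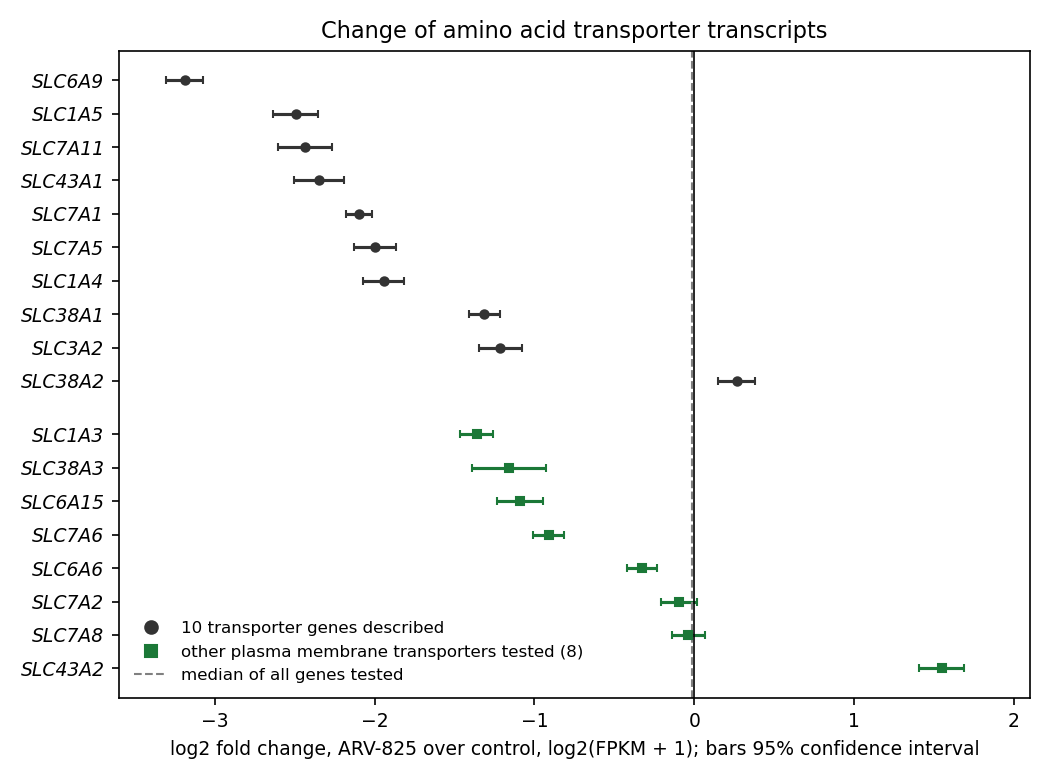
Log2 fold change of FPKM + 1 in ARV-825 over control, with 95% confidence intervals, for the 10 transporter genes (circles) and for the 8 other plasma membrane amino acid transporters tested (squares); the dashed line is the median of all genes tested (−0.02). Of the 10, 9 lie between −3.19 and −1.21 and *SLC38A2* at 0.27, which did not hold after rescaling to TPM, and of the 8 others *SLC43A2* lies at 1.55.

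The make-up of the 10 transcripts also differed. Their FPKM summed to 199 ± 1.95 in ARV-825 and 538 ± 2.98 in control. *SLC38A2* held 34.6%, 38.9% and 38.0% of this sum in the ARV-825 libraries, against 11.6%, 11.4% and 11.2% in the control libraries. *SLC7A5* held 21.0% ± 1.503 in ARV-825 and 31.5% ± 0.224 in control, and *SLC1A5* 5.86% ± 0.448 in ARV-825 and 13.0% ± 0.190 in control. The share of *SLC6A9* was 0.603% ± 0.0363 in ARV-825 and 3.54% ± 0.0964 in control. *SLC38A1* took about the same share, 10.9% ± 0.598 in ARV-825 and 10.3% ± 0.128 in control. These shares are set within a library and so do not depend on its scaling. In ARV-825 the order of levels was *SLC38A2*, *SLC7A5*, *SLC3A2*, *SLC38A1*, *SLC1A5*, *SLC7A1*, *SLC43A1*, *SLC7A11*, *SLC1A4* and *SLC6A9*. The library ranges of *SLC1A5* and *SLC7A1* overlapped, as did those of *SLC43A1*, *SLC7A11* and *SLC1A4* between neighbours. In control the order was *SLC7A5*, *SLC3A2*, *SLC1A5*, *SLC38A2*, *SLC38A1*, *SLC7A1*, *SLC6A9*, *SLC7A11*, *SLC43A1* and *SLC1A4*, and only *SLC7A11* and *SLC43A1* overlapped.

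**Figure D4:**
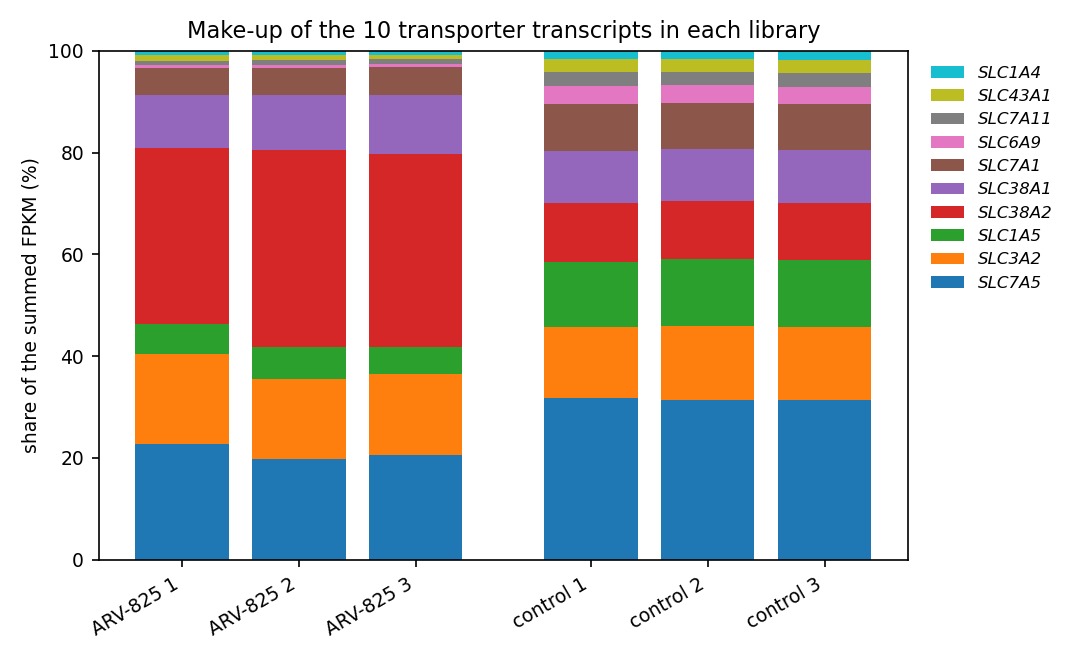
Share of the summed FPKM of the 10 transporter transcripts (%) held by each gene, as stacked bars for the 3 ARV-825 libraries (left) and the 3 control libraries (right). *SLC38A2* (red) holds 34.6% to 38.9% in ARV-825 and 11.2% to 11.6% in control, and *SLC7A5* (blue) holds the largest share in control.

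A list of 31 other amino acid transporters of the plasma membrane was examined with the same test. Of these, 23 were below the filter, none above 1.34 FPKM in any library, and 6 of the 23 were at 0 in all libraries. Among the 8 tested, 5 fell, 1 rose and 2 missed the adjusted p, and 3 fell and 1 rose past both thresholds, with a median log2 fold change of −0.62. Over all genes tested 40.2% were lower and 37.0% higher, and 12.1% and 8.81% past both thresholds. After rescaling to TPM, after scaling to fragments in genes and with limma-voom, 7 of the 8 were lower and 1 higher. In these settings 7214, 5915 and 6024 of all 13442 genes tested were lower, and 3176, 4454 and 4566 were higher. A wider set of 320 other SLC genes, added after the values were seen, held 151 genes tested, of which 70 were lower, 56 higher and 25 did not pass, against the same shares over all genes. After rescaling to TPM 89 were lower and 34 higher, against 7214 lower and 3176 higher over all genes tested. With FPKM as deposited, 17 of the 151 were lower and 5 higher past both thresholds, and their median log2 fold change was −0.06. All lists were chosen with earlier results of these data known, and no set test was made on them.

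Carriers of the lysosomal membrane, which move amino acids between lysosome and cytosol, included both decreases and increases. Of 8 listed 7 were tested, with 3 lower, 2 higher and 2 not passed, against 40.2% lower and 37.0% higher over all genes tested. None was past both thresholds. Scaled by median-ratio size factors, 2 were lower and 4 higher, against 5212 lower and 5237 higher of all 13442 genes tested. *MFSD12*, needed for cysteine import into lysosomes, rose to 22.7 ± 2.02 FPKM in ARV-825, against 13.4 ± 0.169 FPKM in control (log2 fold change 0.71). *CTNS*, the cystine exporter, rose to 5.63 ± 0.490 FPKM in ARV-825, against 3.44 ± 0.0743 FPKM in control. *SLC15A4* and *SLC38A7* fell, with log2 fold changes of −0.30 and −0.28, and *SLC66A1*, the other one that was lower, had −0.21. With median-ratio size factors *SLC66A1* did not pass (adjusted p = 0.0523 from limma).

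Among the transcription factors known to act on these genes are ATF4, MYC and NFE2L2 (NRF2). *ATF4* was at 114, 106 and 105 FPKM in ARV-825, against 263, 269 and 264 FPKM in control (log2 fold change −1.28, adjusted p = 4.68e-07 from limma). *MYC* fell to 85.8 ± 5.14 FPKM in ARV-825, against 158 ± 1.30 FPKM in control (log2 fold change −0.88). *NFE2L2* rose to 18.2 ± 0.849 FPKM in ARV-825, against 12.1 ± 0.254 FPKM in control (log2 fold change 0.55). These are transcript levels, and the part of any factor in the changes of the transporters was not tested.

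**Figure D5:**
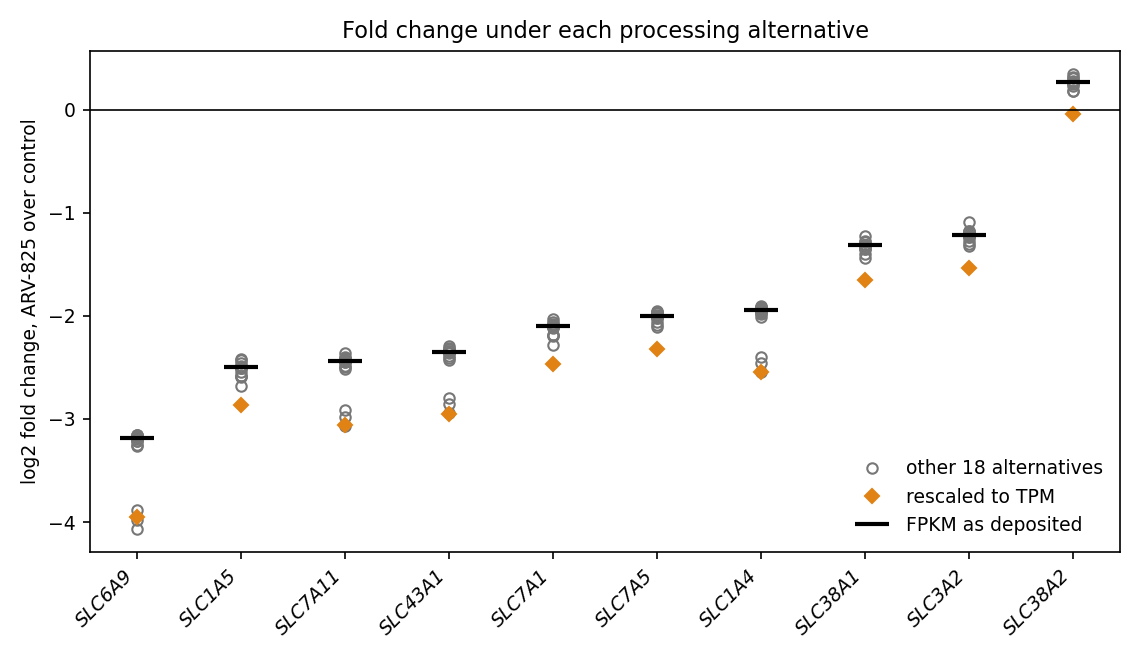
Log2 fold change in ARV-825 over control of each of the 10 transporter genes with FPKM as deposited (black line), after rescaling to TPM (orange diamond) and under 18 other processing alternatives (open circles). The 9 decreases stay below −1 under all of them, and *SLC38A2* is above 0 (0.18 to 0.35) except after rescaling to TPM (−0.04).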

How the data were processed

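The authors deposited FPKM values for 58735 genes in 6 libraries, and the submitters' processing notes list HISAT2 2.0.5. The notes also name the mouse build mm10, but every identifier is human and found in GENCODE 29, which gave exon lengths and coordinates (GRCh38). For the counting tool, no name is given in the sources used here. Symbols were found for 58207 identifiers. The product of FPKM and exon length, divided by its smallest step in a library, was whole within 0.05 for 100% of values above 0. By these steps 1 fragment in a gene of 1 kb was worth 0.0665 to 0.0686 FPKM in ARV-825 and 0.0495 to 0.0581 FPKM in control.

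For the 13442 genes with a mean of at least 1 FPKM, log2(FPKM + 1) was compared between the groups with limma 3.58.1 (lmFit, and eBayes with an intensity trend) in R 4.3.3, with Benjamini-Hochberg adjustment over all genes tested. The thresholds were an adjusted p under 0.05 and an absolute log2 fold change above 1. For low genes this log2(FPKM + 1) scale makes a change look smaller than it is. The test was tried on simulated data first.

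The members and the gene lists were chosen with earlier results of these data known. The genes named are the 10 members, up to 4 genes per list with the largest change in each direction at an adjusted p under 0.05, the listed transcription factors, and copies or overlapping genes of members. Some genes that this rule takes are not reported here. Others, such as *SLC7A2*, *SLC7A8*, *SLC6A6*, *SLC1A1*, *COL1A1*, *EPCAM*, *SESN1*, *SESN2*, *GSR*, *GSS* and *GPX4*, were named after their values were seen. Alternatives covered the pseudocount, the filter, the scaling, the variance model, recovered fragments with limma-voom, the replicate block, protein-coding genes alone and each library left out. Motifs were searched in RefSeq windows with Python 3.11.15.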

Additional observations from a re-analysis of the deposited data

How the results depend on the processing

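The 9 decreases kept their direction and passed the test under all 19 alternatives, of which 1, scaling by median-ratio size factors, was chosen after seeing the data. Log2 fold changes ranged from −4.07 to −3.16 for *SLC6A9*, −3.07 to −2.36 for *SLC7A11* and −1.54 to −1.09 for *SLC3A2*. Leaving out each library in turn, 9 members were lower, 9 passed both thresholds and 1 was higher throughout, and *SLC38A2* lay at 0.23 to 0.31. After rescaling to TPM, 0 members were higher and *SLC38A2* had a log2 fold change of −0.0401, since the FPKM summed to 348808 to 360662 in ARV-825 and 282667 to 294346 in control. Past both thresholds, 1630 genes were lower and 1184 higher over all genes tested. These counts were 2978 and 1068 after rescaling to TPM, 1845 and 1064 scaled to fragments in genes, 2536 and 1596 with limma-voom, and 1441 and 593 among protein-coding genes alone, and the cause of the differences was not tested. The titles give both groups the replicate numbers 1 to 3. The deviations of same-numbered libraries from their group means correlated weakly (0.00421, 0.0414 and 0.0378). Correlations between libraries of unlike number were lower, at −0.0402 to 0.00159. Deviations within a group cancel out, so lower values on average follow from the positive ones and add nothing on pairing. With a replicate block 9 members were lower and *SLC38A2* was at 0.27 (adjusted p = 0.00770 from limma), and by adjusted p 5279 genes were lower and 4870 higher over all genes tested, against 5405 and 4977 without it. Depth limits *SLC6A9*, *SLC43A1*, *SLC1A4* and *SLC7A11* in ARV-825, with under 300 fragments per library.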

Other observations

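Genes of the amino acid starvation response were also measured. Of 15 listed, 9 were lower, 4 higher and 2 did not pass the limma test, against 40.2% lower and 37.0% higher over all genes. After rescaling to TPM 12 were lower and 2 higher, against 7214 lower and 3176 higher of all 13442 genes tested. With FPKM as deposited, the median log2 fold change of the 15 was −0.39. *TRIB3*, a pseudokinase gene induced by ATF4, fell to 1.60 ± 0.0873 FPKM in ARV-825, against 28.4 ± 0.909 FPKM in control, and *NUPR1*, a stress-induced chromatin protein gene, fell to 1.57 ± 0.0271 FPKM in ARV-825, against 13.4 ± 0.150 FPKM in control. *CEBPG* and *CEBPB*, which encode partners of ATF4, fell by 1.90 and by 1.39 on the log2 scale. *PPP1R15A*, which encodes the GADD34 subunit that reverses eIF2α phosphorylation, rose to 49.3 ± 3.94 FPKM in ARV-825, against 9.45 ± 0.336 FPKM in control (log2 fold change 2.27). *PPP1R15B* had a log2 fold change of 0.67. *DDIT3* and *GCN1* had 0.26 and 0.13, and −0.03 and −0.18 after rescaling to TPM.

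Of 34 genes of amino acid sensing by mTORC1, 32 were tested, with 10 lower, 16 higher and 6 not passed (median log2 fold change 0.12), against the same 40.2% lower and 37.0% higher over all genes. After rescaling to TPM 15 were lower and 9 higher, against 7214 lower and 3176 higher of all 13442 genes tested. *SESN3*, a sestrin gene, rose to 29.9 ± 2.02 FPKM in ARV-825, against 4.32 ± 0.0668 FPKM in control (log2 fold change 2.54). Of the leucine sensors, *SESN2* fell by 0.48 on the log2 scale (adjusted p = 0.000113 from limma), and *SESN1* had a log2 fold change of 0.73 (adjusted p = 0.000460). *FNIP1*, *RRAGC* and *BMT2*, the gene of the S-adenosylmethionine sensor SAMTOR, rose with log2 fold changes of 1.14, 1.09 and 1.05. *MLST8*, a core subunit of mTORC1, fell to 9.62 ± 1.16 FPKM in ARV-825, against 25.6 ± 0.415 FPKM in control, and *RRAGD*, *NPRL3* and *LAMTOR4* fell by 1.03, 0.96 and 0.83 on the log2 scale.

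Of 24 genes of amino acid use, 21 were tested, with 9 lower, 8 higher and 4 not passed (median log2 fold change −0.05). These shares were near the 40.2% and 37.0% of all genes. After rescaling to TPM 13 were lower and 4 higher, against 7214 lower and 3176 higher of all 13442 genes tested. *BCAT1*, the cytosolic branched-chain aminotransferase that takes leucine, fell to 3.42 ± 0.124 FPKM in ARV-825, against 19.1 ± 0.193 FPKM in control. *CHAC1*, which breaks down glutathione, fell to 1.74 ± 0.164 FPKM in ARV-825, against 27.1 ± 1.09 FPKM in control, while *SHMT1* and *ASNS* fell by 1.18 and by 0.98 on the log2 scale. *TXNRD1*, the thioredoxin reductase gene, rose to 95.8 ± 0.577 FPKM in ARV-825, against 27.7 ± 1.22 FPKM in control, and *GCLM* and *GCLC*, the subunits of the enzyme that uses cysteine for glutathione, rose with log2 fold changes of 1.02 and 0.49. Other glutathione genes of the list did not share this, as *GSR* fell by 0.28 on the log2 scale, and *GSS* and *GPX4*, at 0.17 and 0.21, were at −0.12 and −0.10 after rescaling to TPM.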
